A study of Homo sapiens with 6 samples.

Results

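The 10 genes of the circadian clock named here were followed in nascent transcription data: PER1, PER2, PER3, CRY1, CRY2, NR1D1, NR1D2, DBP, TEF and BHLHE40. They were taken by name, with earlier results of these data known, as gene intervals of the count table with at least 10 counts in a library. All 10 met that minimum and the filter on low counts, out of 20333 intervals in the table, of which 19902 were tested. The cells were T47D, a human luminal breast cancer line that is positive for the estrogen receptor and negative for HER2, so every value comes from 1 cell line. All of them grew in growth factor-complete medium and were treated for 5 h. The control arm received DMSO, the solvent. A second arm received 500 nM GDC0068, which inhibits the catalytic activity of the AKT kinases. The last arm, labelled Degrader, received 100 nM INY-05-040, a compound that leads to the destruction of the AKT proteins. The doses had been picked to suppress signalling downstream of AKT to a like extent. Each arm had 2 libraries, numbered 1 and 2, from 2 independent experiments, giving 6 libraries. Clock phase or synchronisation of the cells is not given in the sources used here. The assay was PRO-seq, which sequences RNA freshly extended by polymerases in permeabilised cells and so reads out transcription in progress, not the amount of mRNA.

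The mammalian clock is a feedback loop of transcription. The activators CLOCK and BMAL1 (ARNTL) bind E-box sequences and switch on the PER and CRY genes, whose proteins return to the nucleus and block the activators. A second loop runs through the REV-ERB repressors (NR1D1 and NR1D2) and the ROR activators, which compete for the same element and set the transcription of ARNTL. Output factors such as DBP and TEF act on D-box sequences, and most cells outside the brain run this clock on their own and take its timing from hormones, growth factors and feeding.

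The libraries held 25371819 to 32192576 counts, with a median of 643 to 790 counts per tested gene. Levels are given in CPM, counts scaled to a common library size. All 8 luminal markers examined (ESR1, PGR, GATA3, FOXA1, KRT8, KRT18, KRT19 and XBP1) had counts, with a summed level between 5346 and 5722 CPM in every library. Of 5 markers of basal or mesenchymal cells, only ZEB1 could be analysed, at 5.24 to 6.01 CPM. The 2 blood markers were not analysed here. The smallest count of any of the 10 genes in a library was 501. In such bulk samples, a lower value in every cell and a normal value in fewer cells cannot be told apart.

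Per kilobase of its interval, BHLHE40 was the most heavily transcribed clock gene in DMSO, at 28.2 ± 3.4 CPM per kb (SD, n = 2). BHLHE40, also called DEC1, is a repressor that binds E-boxes. DBP followed at 3.62 ± 0.26 CPM per kb and PER1 at 2.89 ± 0.42 CPM per kb. NR1D1 stood at 2.50 ± 0.25 CPM per kb, and its libraries overlapped those of PER1. CRY2 and PER2 came next, at 2.15 ± 0.074 and 2.12 ± 0.071 CPM per kb, and overlapped each other. NR1D2 at 1.198 ± 0.026 and TEF at 1.17 ± 0.061 CPM per kb also overlapped. PER3 at 0.464 ± 0.023 and CRY1 at 0.380 ± 0.011 CPM per kb were lowest. These densities depend on the length of the deposited intervals, which ran from 5835 bp for BHLHE40 to 102186 bp for CRY1.

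Under Degrader, DBP and NR1D2 rose and CRY1 and PER2 fell; these were 4 of the 10 clock genes, 2 in each direction, called by edgeR where the adjusted p was below 0.05. Of all genes tested, 15.3% were called in this comparison, 7.39% higher and 7.88% lower. The median log2 fold change was -0.06 over the 10 genes and -0.00144 over all genes, and the median size was 0.15 and 0.13. Under GDC0068, DBP and NR1D2 rose and no clock gene fell past the threshold, against 3.58% of all genes called, 1.70% higher and 1.88% lower. The median was 0.06 over the 10 genes and 0.01 over all genes. Both comparisons share the DMSO libraries. Without any 1 of the libraries compared, fewer clock genes were called in each comparison, and also fewer of all genes. When the replicate number entered the fit as a block, 5 of the 10 genes were called under each drug: PER1 joined the genes that fell under Degrader, and under GDC0068 PER1 was called higher and PER2 and CRY1 lower. Of all genes, the block called 30.7% under Degrader, 15.1% higher and 15.7% lower, and 17.8% under GDC0068, 8.87% higher and 8.91% lower. The libraries of Degrader and DMSO did not overlap for 5 of the 10 genes, against 58.6% of all genes, and those of GDC0068 and DMSO for 6, against 50.1%. All changes were small: over both drugs the log2 fold changes of the 10 genes ran from -0.38 for CRY1 to 0.35 for DBP.

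**Figure D1:**
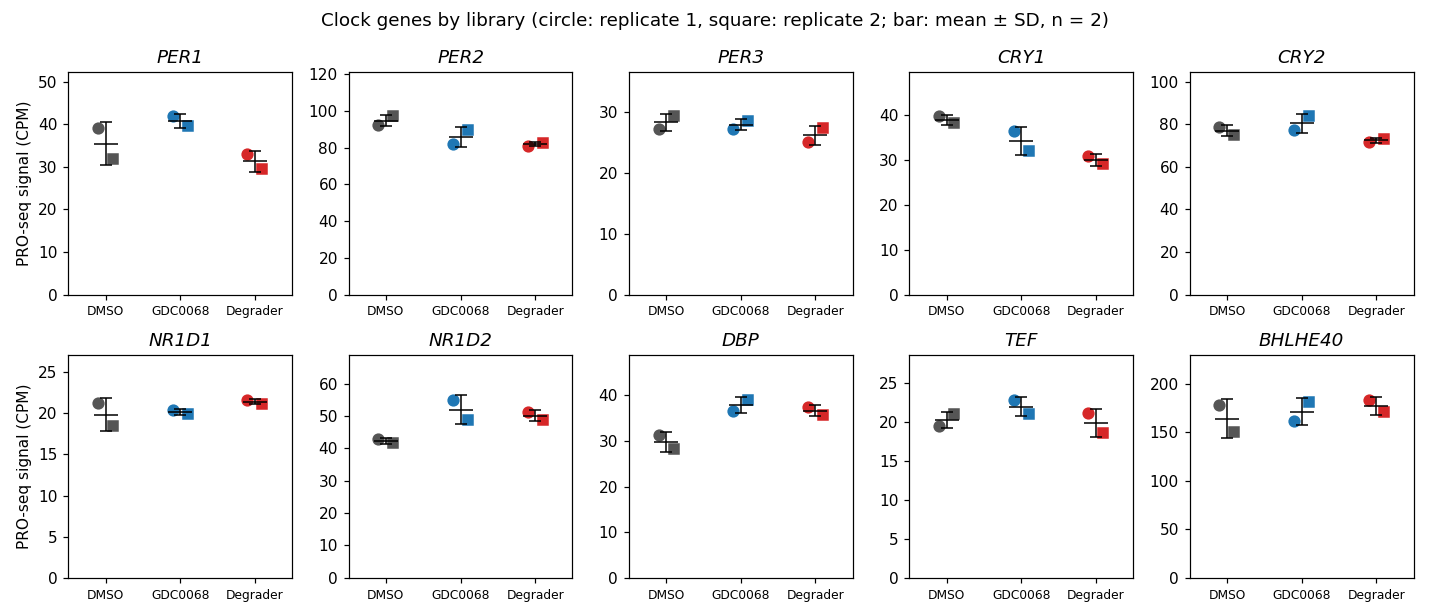
PRO-seq signal of the 10 clock genes in CPM (vertical axis, from 0) in each of the 6 libraries; circles are replicate 1, squares replicate 2, and black bars the mean ± SD of 2 libraries. DBP and NR1D2 lie higher in all 4 drug libraries than in both DMSO libraries, and PER2 and CRY1 lower.

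The PER genes encode the repressors that, with the CRY proteins, close the loop. PER2 (ENSG00000132326, chromosome 2, 238244044 to 238288781, minus strand) measured 92.5 and 97.0 CPM with DMSO, 82.0 and 89.4 CPM with GDC0068, and 81.0 and 82.5 CPM with Degrader. Every drug library was below both DMSO libraries. PER2 fell under Degrader, from 94.7 ± 3.2 to 81.7 ± 1.1 CPM (SD, n = 2), a log2 fold change of -0.21 (edgeR SE 0.056, adjusted p = 0.0265). The call was lost without any 1 of the 4 libraries compared, with edgeR adjusted p-values of 0.0724 and 0.137 without DMSO replicates 1 and 2 and 0.122 and 0.105 without Degrader replicates 1 and 2. With the replicate block the edgeR adjusted p of PER2 under Degrader was 0.000163. Under GDC0068 the log2 fold change of PER2 was -0.14 (edgeR SE 0.056, adjusted p = 0.181; 0.0128 with the replicate block).

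PER1 (ENSG00000179094, chromosome 17, 8144055 to 8156329, minus strand), a PER gene known for its rapid induction by outside signals, gave values of opposite sign under the drugs. Its DMSO libraries lay far apart, at 39.1 and 31.9 CPM. GDC0068 gave 41.9 and 39.6 CPM, above both, and Degrader gave 33.1 and 29.5 CPM, which overlapped DMSO. Neither change was called in the fit without the block: the log2 fold change was 0.19 under GDC0068 (edgeR SE 0.094, adjusted p = 0.276) and -0.18 under Degrader (edgeR SE 0.096, adjusted p = 0.223). With the replicate block both were called, at 0.20 (edgeR SE 0.063, adjusted p = 0.0248) and -0.18 (edgeR SE 0.065, adjusted p = 0.0337). Within replicate 1 the log2 ratio to DMSO was 0.10 under GDC0068 and -0.24 under Degrader, and within replicate 2 it was 0.31 and -0.11. Leaving out 1 library moved the Degrader value of PER1 between -0.32, without DMSO replicate 2, and -0.03, without DMSO replicate 1. The GDC0068 value moved between 0.06 and 0.35, again without DMSO replicates 2 and 1.

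The PER1 interval shares 44.9% of its length with AC129492.3 (8150816 to 8162958) on the same strand, and the use of strand in counting is not given in the sources used here. Reads of the shared 5514 bp could belong to either gene. AC129492.3 itself stood at 75.7 ± 6.4 CPM in DMSO, 77.3 ± 2.7 under GDC0068 and 68.2 ± 2.5 under Degrader (SD, n = 2). Its log2 fold change was -0.15 under Degrader (edgeR adjusted p = 0.139; 0.00949 with the replicate block) and 0.03 under GDC0068 (edgeR adjusted p = 0.844; 0.670 with the block). Its part in the PER1 values was not tested. The counted PER1 bases before its RefSeq start site all lie in the stretch shared with AC129492.3. That start site lies 3925 bp inside the deposited interval. The 250 bases before it (GRCh38.p14, chr17:8152405-8152654, minus strand) are shown because PER1 is the clock gene in which the drugs lay furthest apart; capitals mark an E-box, CACGTG, from 173 to 168 bases before the start, and a D-box, TTATGCAA, from 30 to 23 bases before it.
PER1: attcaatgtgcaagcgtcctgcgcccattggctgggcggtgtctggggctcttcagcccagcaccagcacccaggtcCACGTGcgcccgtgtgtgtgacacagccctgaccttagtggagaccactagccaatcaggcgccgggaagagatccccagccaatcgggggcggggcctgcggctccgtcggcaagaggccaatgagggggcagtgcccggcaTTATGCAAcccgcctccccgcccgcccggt

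PER3 (ENSG00000049246, chromosome 1, 7784315 to 7845176, plus strand), the third PER gene, had 27.2 and 29.2 CPM in DMSO, 27.2 and 28.5 under GDC0068, and 25.0 and 27.2 for Degrader. The arms overlapped. PER3 differed from DMSO by -0.11 on the log2 scale under Degrader, with a 95% interval of -0.29 to 0.07 (edgeR adjusted p = 0.410), and -0.02 under GDC0068, with an interval of -0.20 to 0.16 (edgeR adjusted p = 0.940).

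CRY1 (ENSG00000008405, chromosome 12, 106991364 to 107093549, minus strand), a strong repressor of CLOCK and BMAL1, changed the most of the 10 genes under Degrader. It had 39.6 and 38.0 CPM in DMSO, 36.3 and 31.9 under GDC0068, and 30.8 and 29.0 for Degrader. The 3 arms did not overlap: GDC0068 lay between DMSO and Degrader. CRY1 fell from 38.8 ± 1.1 to 29.9 ± 1.3 CPM under Degrader (SD, n = 2), a log2 fold change of -0.38 (edgeR SE 0.078, adjusted p = 0.00830). The call was lost without DMSO replicate 1 (edgeR adjusted p = 0.0799) and without Degrader replicate 2 (edgeR adjusted p = 0.0795). With the replicate block the edgeR adjusted p of CRY1 under Degrader was 3.79e-05. Under GDC0068 the log2 fold change was -0.19 (edgeR SE 0.077, adjusted p = 0.195; 0.0342 with the replicate block). Its value was -0.13 within replicate 1 and -0.25 within replicate 2. The RefSeq and deposited start sites of CRY1 coincide. The 250 bases before the start (GRCh38.p14, chr12:107093550-107093799, minus strand) are shown because they alone among the clock gene windows hold the FOXO element GTAAACA. Capitals mark it, from 105 to 99 bases before the start. Of all windows searched, 2.98% held this element. FOXO factors are restrained by AKT, but a part of the element in the CRY1 values was not tested.
CRY1: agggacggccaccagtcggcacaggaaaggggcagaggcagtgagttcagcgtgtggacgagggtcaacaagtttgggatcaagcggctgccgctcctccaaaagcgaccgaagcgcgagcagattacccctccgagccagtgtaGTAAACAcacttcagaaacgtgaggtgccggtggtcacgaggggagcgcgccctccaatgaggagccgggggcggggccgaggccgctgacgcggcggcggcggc

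CRY2 (ENSG00000121671, chromosome 11, 45847487 to 45883244, plus strand), the other cryptochrome, was called in neither comparison with DMSO. It had 78.7 and 75.0 CPM in DMSO, 77.3 and 83.6 under GDC0068, and 71.7 and 73.2 under Degrader. Both Degrader libraries lay below all others, by a small margin. Against DMSO, CRY2 differed by -0.09 on the log2 scale with Degrader (edgeR SE 0.057, adjusted p = 0.342) and by 0.07 with GDC0068 (edgeR SE 0.056, adjusted p = 0.558).

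The REV-ERB genes encode nuclear receptors that bind heme and repress ARNTL. NR1D2, which encodes REV-ERB beta (ENSG00000174738, chromosome 3, 23945289 to 23980617, plus strand), had 43.0 and 41.7 CPM in DMSO, 55.1 and 48.7 under GDC0068, and 51.3 and 48.9 under Degrader. All 4 drug libraries were above both DMSO libraries. NR1D2 rose from 42.3 ± 0.92 to 51.9 ± 4.5 CPM under GDC0068 (SD, n = 2), a log2 fold change of 0.29 (edgeR SE 0.069, adjusted p = 0.0423), and to 50.1 ± 1.7 CPM under Degrader, a log2 fold change of 0.24 (edgeR SE 0.069, adjusted p = 0.0348). The Degrader call was lost without any 1 of the 4 libraries compared, with edgeR adjusted p-values of 0.118 and 0.140 without DMSO replicates 1 and 2 and 0.163 and 0.102 without Degrader replicates 1 and 2, and with DESeq2 (adjusted p = 0.0630). The GDC0068 call was lost with DESeq2 (adjusted p = 0.0505), in a fit to the 4 libraries compared (edgeR adjusted p = 0.0577) and without any 1 of the 6 libraries: with edgeR the adjusted p was 0.168 and 0.175 without DMSO replicates 1 and 2, 0.192 and 0.0545 without GDC0068 replicates 1 and 2, and 0.0567 and 0.0558 without Degrader replicates 1 and 2. With the replicate block the edgeR adjusted p was 0.000297 under GDC0068 and 0.000815 under Degrader.

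NR1D2 has 2 RefSeq start sites, 1 of them 3 bp before the start of the deposited interval and the other 832 bp inside it. The window before the second held 4 matches to 3 of the 5 motifs searched, more matches than that of any other clock gene, and short stretches of it are shown for that reason. Capitals mark a D-box on the opposite strand, TTACATAA (chr3:23945916-23945945), an E-box followed by a ROR/REV-ERB element on the opposite strand, TGACCCA (chr3:23945965-23945994), and a second E-box (chr3:23946006-23946035), all on GRCh38.p14 and written on the plus strand.
NR1D2 D-box: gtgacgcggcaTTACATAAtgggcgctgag
NR1D2 first E-box and ROR/REV-ERB element: aCACGTGaggccgctcggctcccTGACCCA
NR1D2 second E-box: gccgcagggaCACGTGggggcgggggcgcg

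NR1D1, which encodes REV-ERB alpha (ENSG00000126368, chromosome 17, 40092793 to 40100729, minus strand), had 21.3 and 18.4 CPM in DMSO, 20.5 and 19.9 under GDC0068, and 21.7 and 21.2 for Degrader. The DMSO libraries spanned both GDC0068 libraries. NR1D1 differed from DMSO by 0.11 on the log2 scale under Degrader, with a 95% interval of -0.10 to 0.31 (edgeR adjusted p = 0.483), and 0.02 under GDC0068, with an interval of -0.18 to 0.23 (edgeR adjusted p = 0.924). Over 13.5% of its length, NR1D1 overlaps THRA, a thyroid hormone receptor gene on the opposite strand. THRA stood at 46.8 ± 2.0 CPM in DMSO, 51.7 ± 3.2 under GDC0068 and 48.9 ± 0.043 under Degrader (SD, n = 2) and was not called in any contrast. Its lowest edgeR adjusted p was that under GDC0068, 0.233 without and 0.0717 with the replicate block.

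DBP and TEF encode activators of the PAR bZIP family, which bind D-boxes and pass the rhythm on to output genes. DBP (ENSG00000105516, chromosome 19, 48630030 to 48638253, minus strand) had 31.3 and 28.3 CPM in DMSO, 36.7 and 39.1 under GDC0068, and 37.6 and 35.8 under Degrader. Each drug library exceeded both DMSO libraries. DBP rose from 29.8 ± 2.1 to 37.9 ± 1.7 CPM under GDC0068 (SD, n = 2), a log2 fold change of 0.35 (edgeR SE 0.075, adjusted p = 0.0317), and to 36.7 ± 1.2 CPM under Degrader, a log2 fold change of 0.30 (edgeR SE 0.075, adjusted p = 0.0201). The Degrader call was lost without DMSO replicate 2 (edgeR adjusted p = 0.135) and without Degrader replicate 1 or 2 (edgeR adjusted p of 0.115 and 0.0841). The GDC0068 call was lost without DMSO replicate 1 or 2 (edgeR adjusted p of 0.0960 and 0.175) and without GDC0068 replicate 1 or 2 (edgeR adjusted p of 0.0605 and 0.146). With the replicate block the edgeR adjusted p was 0.000448 under GDC0068 and 0.000900 under Degrader.

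The DBP interval touches 3 others: CA11 on its own strand over 3.75% of its length, and SPHK2 and SEC1P on the opposite strand over 4.57% and 9.34%. CA11, a carbonic anhydrase-related gene, stood at 11.7 ± 1.9 CPM in DMSO, 13.5 ± 0.42 under GDC0068 and 14.3 ± 1.2 under Degrader (SD, n = 2). Under Degrader it differed from DMSO by 0.29 on the log2 scale (edgeR adjusted p = 0.129; 0.0331 with the replicate block). SPHK2, a sphingosine kinase gene, had log2 fold changes of 0.06 under Degrader and 0.14 under GDC0068 (edgeR adjusted p of 0.613 and 0.306), and SEC1P, a pseudogene, had 0.16 and 0.13 (edgeR adjusted p of 0.335 and 0.504). What these intervals add to the DBP counts was not tested.

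TEF (ENSG00000167074, chromosome 22, 41381942 to 41399326, plus strand) had 19.5 and 21.0 CPM in DMSO, 22.9 and 21.1 under GDC0068, and 21.2 and 18.6 for Degrader. The Degrader libraries lay on both sides of the DMSO libraries. TEF differed from DMSO by -0.03 on the log2 scale under Degrader, with a 95% interval of -0.24 to 0.19 (edgeR adjusted p = 0.891), and 0.12 under GDC0068, with an interval of -0.09 to 0.33 (edgeR adjusted p = 0.538). So of the pair of PAR bZIP genes, DBP was called under both drugs and TEF under neither; the difference between DBP and TEF was not tested.

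BHLHE40 (ENSG00000134107, chromosome 3, 4979489 to 4985323, plus strand) had 178 and 150 CPM in DMSO, 161 and 181 under GDC0068, and 184 and 171 for Degrader. The DMSO libraries lay far apart and overlapped both drug arms. BHLHE40 differed from DMSO by 0.11 on the log2 scale under Degrader, with a 95% interval of -0.07 to 0.28 (edgeR adjusted p = 0.400), and 0.06 under GDC0068, with an interval of -0.12 to 0.24 (edgeR adjusted p = 0.729). The antisense interval BHLHE40-AS1 overlaps 15.2% of it and gave log2 fold changes of 0.07 and 0.01 (edgeR adjusted p of 0.646 and 0.953).

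**Figure D2:**
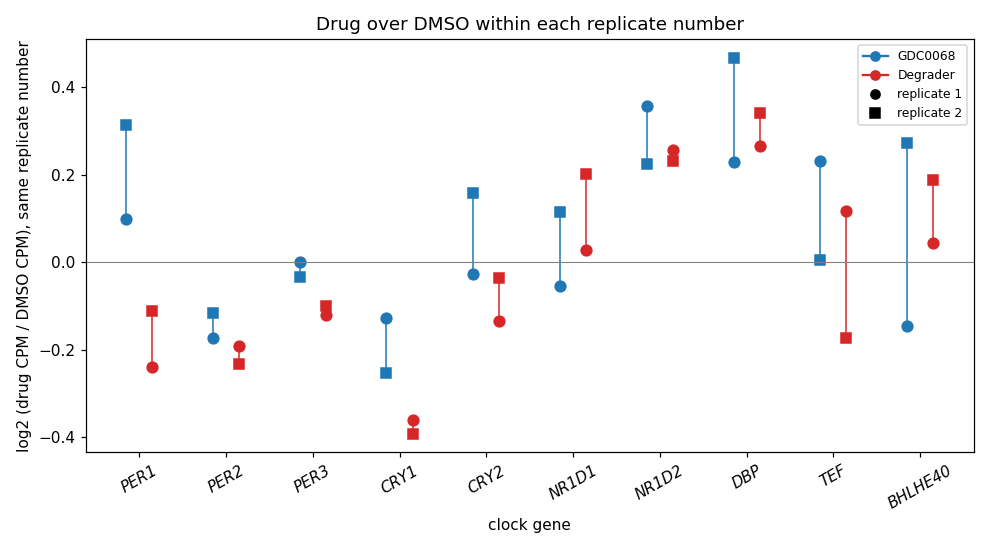
Log2 ratio of drug to DMSO CPM within each replicate number (vertical axis) for the 10 clock genes; blue is GDC0068, red Degrader, circles replicate 1 and squares replicate 2. DBP and NR1D2 lie above 0 and PER2 and CRY1 below 0 in both replicates of both drugs, while PER1 lies above 0 under GDC0068 and below 0 under Degrader.

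Degrader was also compared directly with GDC0068. The values compare 1 dose of each compound, and these counts hold no measure of AKT protein or activity. Loss of the AKT proteins therefore cannot be told apart from other differences between the compounds. PER1 was lower under Degrader than under GDC0068 by a log2 fold change of -0.38 (SE 0.095, 95% interval -0.59 to -0.17), in both replicates, at -0.34 and -0.42. Over all genes this missed the threshold (edgeR adjusted p = 0.117), and with the replicate block it passed (edgeR adjusted p = 0.000277). CRY2 was lower under Degrader by -0.15 (edgeR SE 0.057, adjusted p = 0.259; 0.0295 with the block), and CRY1 by -0.19 (edgeR SE 0.079, adjusted p = 0.315; 0.0637 with the block). Without the block edgeR called 0 of the 10 genes, as did DESeq2, and 3 had an unadjusted p under 0.05, against 14.1% of all genes. With the block 2 were called, PER1 and CRY2, both lower, against 10.4% of all genes with the block, 5.03% higher and 5.35% lower, and 0.266% without it. Degrader and GDC0068 libraries did not overlap for 4 of the 10 genes, against 45.0% of all genes.

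For the genes that rose, the compounds lay close together. DBP differed by -0.05 between Degrader and GDC0068, with a 95% interval of -0.21 to 0.11, and NR1D2 by -0.05, with an interval of -0.20 to 0.10. PER2 differed by -0.07 (-0.19 to 0.05), PER3 by -0.09 (-0.27 to 0.09), NR1D1 by 0.08 (-0.12 to 0.29), TEF by -0.14 (-0.35 to 0.07) and BHLHE40 by 0.05 (-0.13 to 0.22). These 7 genes were called with neither fit, and intervals of this width do not show that the compounds act alike.

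**Figure D3:**
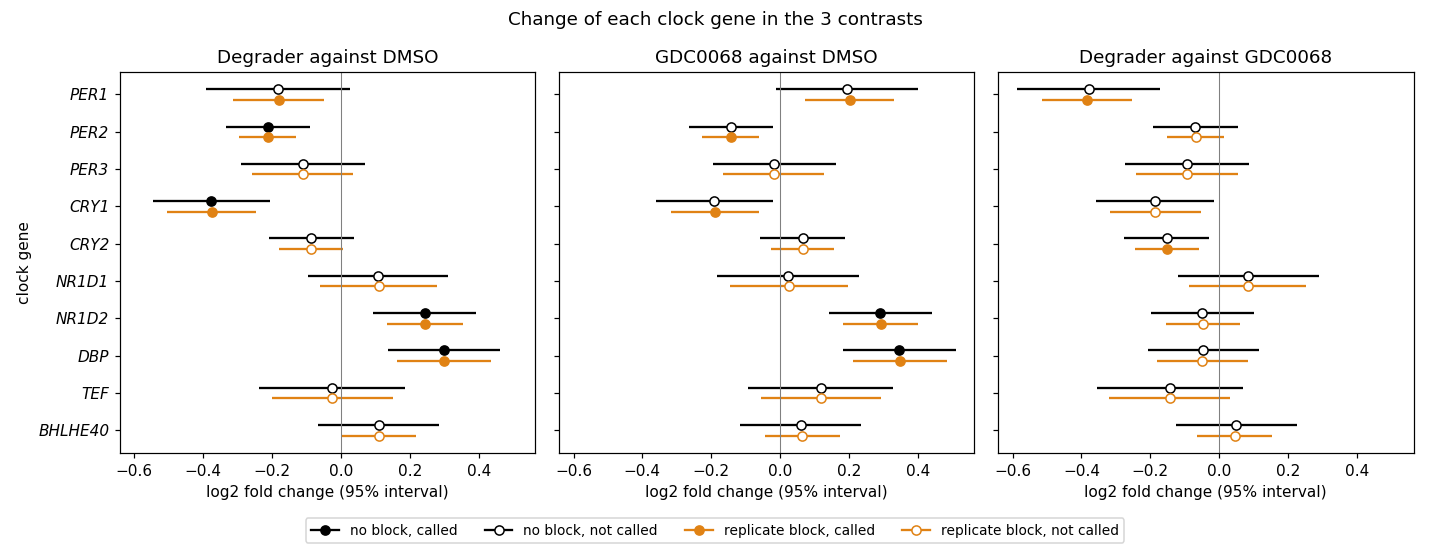
Log2 fold change of each clock gene (horizontal axis) with its 95% interval in the 3 contrasts, from the edgeR fit without (black) and with (orange) the replicate block; filled points have an adjusted p under 0.05. Without the block 4 genes are called under Degrader, 2 with GDC0068 and 0 between the drugs; with it the numbers are 5, 5 and 2.

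The other genes of the pathway reported here came from a list of 27, of which 25 could be analysed; BHLHE41 and FBXL21 were not analysed here. Under Degrader 2 of the 25 were called, WEE1 higher and USP2 lower, against 15.3% of all genes. Under GDC0068 edgeR called 0 of the 25, as did DESeq2, against 3.58% of all genes. An unadjusted p under 0.05 was found there for 2 of the 25, against 20.0% of all genes. The median log2 fold change of the 25 was 0.03 under Degrader and -0.04 under GDC0068. With the replicate block 8 were called under Degrader (4 higher and 4 lower) and 2 under GDC0068 (ARNTL2 and USP2, both lower), against 30.7% and 17.8%.

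Of the 6 activators and ROR receptors reported here, edgeR called none without the block under either drug, and 2 under Degrader and 1 under GDC0068 had an unadjusted p under 0.05, against 29.9% and 20.0% of all genes. The ROR receptors oppose the REV-ERBs at their shared element. The interval RORA-AS1 overlaps 49.5% of RORA on the opposite strand, and its part in the RORA values was not tested. RORA and RORB, thinly transcribed here at 4.20 ± 0.14 and 3.39 ± 0.040 CPM in DMSO (SD, n = 2), had log2 fold changes of 0.35 and 0.47 under Degrader (edgeR adjusted p of 0.150 and 0.0645; 0.0777 and 0.0267 with the block). Under GDC0068 RORA and RORB had 0.33 and 0.40 (edgeR adjusted p of 0.255 and 0.183; 0.136 and 0.0919 with the block). ARNTL2, a relative of ARNTL, had -0.34 under Degrader and -0.40 under GDC0068 (edgeR adjusted p of 0.243 and 0.264; 0.0556 and 0.0464 with the block).

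The core activators were called under neither drug without the block. CLOCK had 66.6 and 74.6 CPM in DMSO, 66.2 and 68.5 under GDC0068, and 64.8 and 64.7 under Degrader, with log2 fold changes of -0.12 under Degrader (edgeR adjusted p = 0.201; 0.0466 with the block) and -0.07 under GDC0068 (edgeR adjusted p = 0.596). ARNTL, which encodes BMAL1, had 28.1 and 30.1 CPM in DMSO, 24.8 and 26.3 under GDC0068, and 25.6 and 29.4 under Degrader. Its log2 fold change was -0.19 under GDC0068 (edgeR adjusted p = 0.273; 0.0722 with the block) and -0.08 under Degrader (edgeR adjusted p = 0.579). NPAS2, a relative of CLOCK, rested on DMSO libraries at 8.03 and 12.6 CPM, so its values of -0.25 under Degrader and -0.14 under GDC0068 (edgeR adjusted p of 0.374 and 0.698) changed sign without DMSO replicate 2, to 0.10 and 0.21. Without DMSO replicate 1, NPAS2 was called under Degrader at -0.55 (edgeR adjusted p = 0.0408).

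USP2, a ubiquitin protease known to act on clock proteins, showed the largest change of the wider list. It had 22.3 and 19.6 CPM in DMSO, 17.9 and 13.4 under GDC0068, and 13.9 and 9.78 for Degrader. The Degrader libraries lay well below DMSO and overlapped those of GDC0068. USP2 (chromosome 11, 119356534 to 119364208) fell under Degrader, with a log2 fold change of -0.82 (edgeR SE 0.16, adjusted p = 0.00703). The call was lost without DMSO replicate 1 (edgeR adjusted p = 0.0610) and without Degrader replicate 2 (edgeR adjusted p = 0.0633). With the block the edgeR adjusted p of USP2 under Degrader was 1.06e-07. Under GDC0068 the log2 fold change was -0.43 (edgeR SE 0.16, adjusted p = 0.162; 0.00145 with the block), and between the drugs -0.40 (edgeR adjusted p = 0.321; 0.00867 with the block).

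WEE1, a kinase gene that restrains entry into mitosis and is known as a target of the clock, had 61.7 and 62.7 CPM in DMSO, 68.7 and 65.4 under GDC0068, and 77.5 and 75.9 for Degrader. The 3 arms did not overlap. WEE1 (chromosome 11, 9573706 to 9589985) rose by 0.30 on the log2 scale with Degrader (edgeR SE 0.052, adjusted p = 0.00343, and 5.13e-06 with the block). Its value under GDC0068 was 0.11 (edgeR adjusted p = 0.283, and 0.0971 with the block). Between the drugs it was 0.19 (edgeR adjusted p = 0.143; 0.00461 with the block). The interval AC122179.1 lies within WEE1 on the same strand and covers 3.05% of it. On the same strand, TPTEP2-CSNK1E covers 100% of CSNK1E and AC021078.1 covers 17.5% of CSNK1A1. On the opposite strand, AC132872.4 and AC132872.3 cover 10.8% and 4.23% of CSNK1D. What these intervals add to the counts was not tested. Of the kinases and ligases reported here that set the stability of PER and CRY proteins, including CSNK1D, CSNK1E and BTRC, none was called without the block under either drug. With it BTRC and FBXW11 were called under Degrader, at log2 fold changes of 0.12 and 0.11 (edgeR adjusted p of 0.00800 and 0.0156). TIMELESS, a partner of the replication fork related to a fly clock gene, and KLF10, a clock output gene, were called lower there with the block, at -0.14 and -0.22 (edgeR adjusted p of 0.0296 and 0.00210; 0.183 and 0.228 without it). Between the drugs edgeR called 0 of the 25 genes without the block, as did DESeq2. An unadjusted p under 0.05 was found for 3 of them, against 14.1% of all genes, and with the block 3 were called (CSNK1A1, USP2 and WEE1), against 10.4%.

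**Figure D4:**
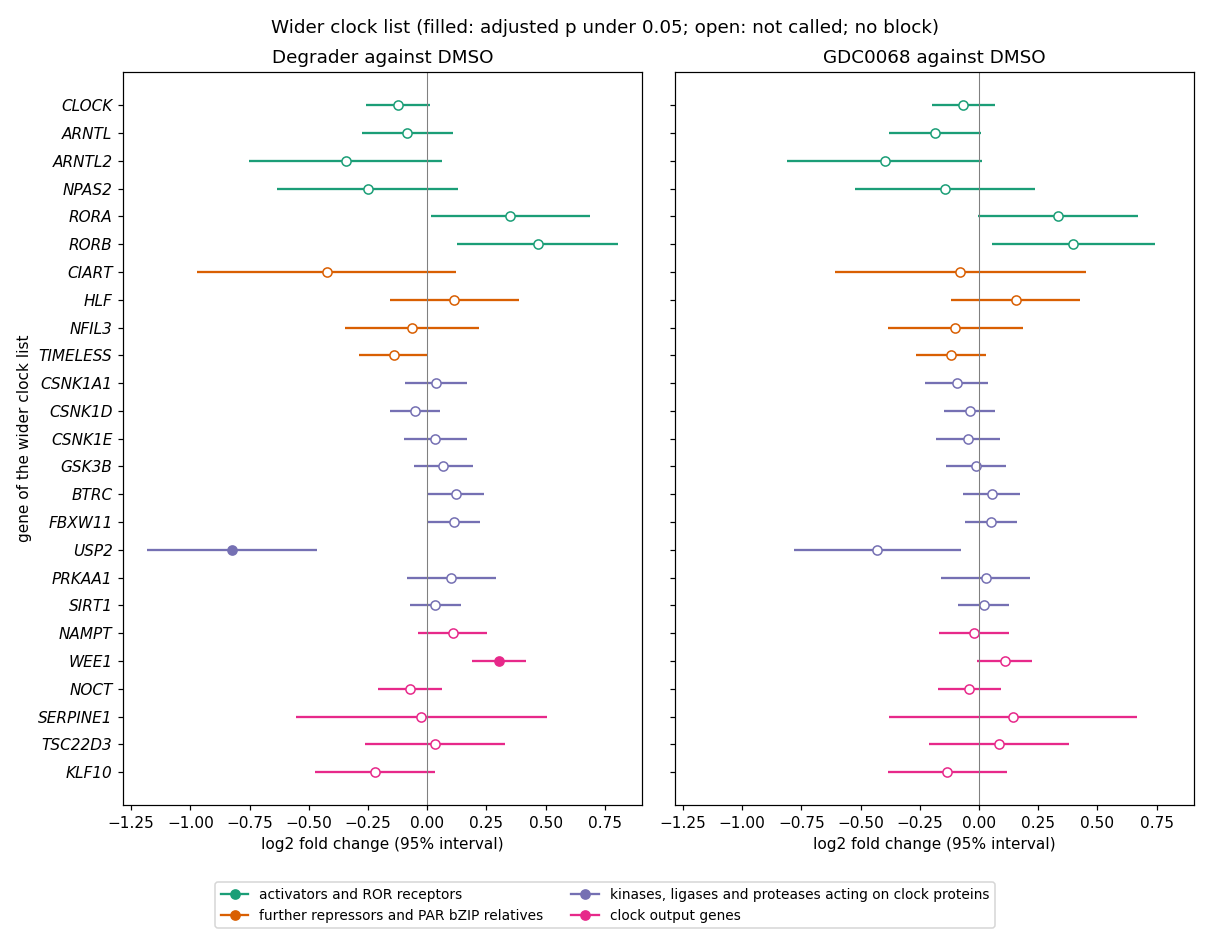
Log2 fold change (horizontal axis) with 95% interval for the 25 further genes of the pathway under Degrader and GDC0068, from the fit without the block, coloured by group; filled points have an adjusted p under 0.05. USP2 and WEE1 are called under Degrader and none of the 25 under GDC0068.

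The windows of 250 bases before the RefSeq start sites were searched on both strands for the E-box CACGTG, the D-boxes TTATGTAA and TTATGCAA, the ROR/REV-ERB elements TAGGTCA and TGGGTCA, the cAMP response element TGACGTCA and the FOXO element GTAAACA. All 10 clock genes matched the table by symbol, with 14 start sites, and 7 genes held a match. An E-box was found for 4 genes (PER1, NR1D2, TEF and BHLHE40), against 6.34% of the 35116 windows of the table. A D-box was found for 3 genes (PER1, PER3 and NR1D2), against 1.61% of windows. CRY2 and NR1D2 held a ROR/REV-ERB element, against 4.82%, and CRY1 a FOXO element, against 2.98%. The cAMP response element was found for 0 of the 10, against 1.65%. A gene with several start sites had several chances, and the windows of PER2, NR1D1 and DBP did not hold these letters. A match is a description of the sequence and not of binding. Of the genes called under both drugs, the windows of NR1D2 held 4 matches and that of DBP held 0.

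CRY1 had the smallest p of the 10 genes under Degrader, so the genes closest to it in pattern were sought among the 13896 others with a mean of at least 10 CPM. The measure was the root mean square difference between log2 CPM values over the 6 libraries, each centred on its gene's mean. AMER1 differed from CRY1 by 0.016, DNAJB5 by 0.021 and PPAN by 0.032 on the log2 scale. Their log2 fold changes under Degrader were -0.37, -0.38 and -0.44, beside -0.38 for CRY1. With 6 libraries and so many genes, a close profile is no sign of a link to CRY1. Other genes were not searched in this way.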

How the data were processed

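The counts per gene interval are the authors' deposited raw counts, 1 column per library; that they are not normalised follows from the values. Per the submitters' processing notes, cutadapt 1.14, Bowtie 1.2.2, SAMtools 1.3.1, HISAT2 2.2.1 and limma were used and the builds hg38, GRCh38 and dm3 are named, without their roles. The counter, strand use, duplicate removal and any spike-in scaling are not given in the sources used here. Each can move counts, and a change common to all genes is removed by scaling. In all 20333 intervals, a further column equalled the start site once the start was taken as 0-based, and positions are therefore printed 1-based.

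The analysis used edgeR 4.0.16 in R 4.3.3: filterByExpr (minimum count 10, minimum total 15), TMM scaling (factors 0.997 to 1.003), and 1 quasi-likelihood fit of all 6 libraries with a term per arm (3 residual degrees of freedom). Calls use a Benjamini-Hochberg adjusted p under 0.05 over 19902 genes. SE is the size of the log2 fold change over the square root of F, and 95% intervals use the fit's degrees of freedom. With 2 libraries per arm an exact two-sided permutation test cannot go below 0.333. The labels number the replicates, and the study ran as 2 independent experiments. Same-numbered libraries deviated together (r of 0.419 to 0.492 between arms over 13897 genes), so values with the replicate block stand beside the calls. Replicates were not copies of one another (chi-square per degree of freedom 5.01 to 6.95). The fits without and with the block were run on simulated counts for Degrader against DMSO only. No replicate effect was simulated, so that run cannot decide between them, and its outcome is not reported here. Alternatives included DESeq2 1.42.0, and each fit with a library left out was made without the block. The 10 genes, the lists, the naming rule (the 10 genes; listed genes called in a contrast, with CLOCK, ARNTL and NPAS2; overlapping intervals; the 3 genes closest to the top one) and the motifs were chosen with earlier results of these data known. RORA, RORB, ARNTL2 and the blocked calls named were added after their values were seen. A part of the listed genes is not reported here. Promoter sequences are from RefSeq (GRCh38.p14).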

Additional observations from a re-analysis of the deposited data

Results flagged for a closer look

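Within each replicate number, the log2 ratio of PER1 to DMSO was positive under GDC0068 and negative under Degrader, the pattern for which it was flagged. Neither change from DMSO was called without the block (edgeR adjusted p of 0.276 under GDC0068 and 0.223 under Degrader). The Degrader libraries overlapped those of DMSO, and the Degrader value was -0.03 without DMSO replicate 1. The log2 fold change of Degrader against GDC0068 was -0.38 and was not called in the fit of all 6 libraries (edgeR adjusted p = 0.117); with the replicate block it was -0.38 (edgeR adjusted p = 0.000277). It ranged from -0.46 to -0.30 when 1 library was left out. The overlapping interval AC129492.3 differed by -0.18 between the drugs (edgeR adjusted p = 0.247; 0.00765 with the block), and its part in the PER1 difference was not tested.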

How the results depend on the processing

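Each of 30 clock gene comparisons was refitted under 13 alternatives, and 20 kept their sign in all of them. Of the 390 values, 345 kept both sign and side of the threshold, 26 lost a call, 6 gained one and 13 changed sign, all 13 on leaving out a library. Under Degrader, clock gene calls ranged from 0 to 4 with a library left out, those of the wider list from 1 to 2 and those of all genes from 931 to 3217; the replicate block gave 5, 8 and 6114. Under GDC0068 the ranges were 0 to 1, 0 to 0 and 37 to 546, the block gave 5, 2 and 3540, and DESeq2 and the fit to the 4 libraries compared each called 1 clock gene. Between the drugs the block gave 2, 3 and 2065; all genes called ranged from 5 to 63 with a library left out and were 116 with robust estimation, 136 with DESeq2 and 23 in the fit to 4 libraries. DESeq2's size factors, upper-quartile factors and no filter left every clock gene count as it was. Log2 fold changes that changed sign with a library left out ranged, under Degrader, from -0.12 to 0.056 for TEF, -0.0088 to 0.24 for BHLHE40, -0.20 to 0.014 for ARNTL and -0.55 to 0.10 for NPAS2. Under GDC0068 they ranged from -0.071 to 0.034 for PER3, -0.00087 to 0.12 for CRY2, -0.074 to 0.13 for NR1D1, -0.058 to 0.19 for BHLHE40, -0.15 to 0.016 for CLOCK and -0.45 to 0.21 for NPAS2. Between the drugs they ranged from -0.13 to 0.0029 for PER2, -0.13 to 0.042 for NR1D2, -0.089 to 0.0090 for DBP, -0.030 to 0.14 for BHLHE40 and -0.0047 to 0.21 for ARNTL. Fewer libraries leave fewer degrees of freedom, and a lone library is assumed to vary like the others. The cause of the changes with DESeq2, robust estimation and the block was not tested. Every clock gene had at least 501 counts in each library; the 2 libraries per arm limit the precision.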
